A study of Mus musculus with 20 samples.

Results

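Messenger RNA of 34 genes of the endoplasmic reticulum (ER) was followed in whole mouse lenses labelled as triply deficient for E2F1, E2F2 and E2F3 and in control lenses. The 34 were taken from a list of ER chaperones, disulfide enzymes, stress sensors, channel subunits and degradation factors, out of 18193 genes on the array, and all 34 were on it. Ero1l was matched under its newer symbol Ero1a. Where a gene had several probe sets, the one brightest on average across the 20 arrays was read, and values are the deposited log2 signals. There were 4 groups of 5 arrays, and each array held RNA of both lenses of 1 mouse. Triple knockout (TKO) lenses carried Cry-Cre, E2F1-/-, E2F2-/- and E2F3f/f, and were collected at birth (P0) or late in gestation, at the embryonic day the labels give as E17.5. Control lenses were E2F2-/- at the same stages, so that loss of E2F2 was common to all 20 arrays and Cre was named for TKO mice only. In TKO mice E2F1 and E2F2 were null in all cells, and the floxed E2F3 was to be lost where the Cre was active, by its name under a crystallin promoter. The series' design text asks what happens in newborn TKO lenses before their cells collapse. Litters are not given in the labels, so p-values measure the spread between these mice. Replicates are called by the numbers in the labels.

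Proteins that are secreted or sit in membranes are threaded into the ER through the Sec61 channel, folded there by chaperones such as BiP (Hspa5) and Grp94 (Hsp90b1), and cross-linked by disulfide enzymes. Misfolded proteins are sensed by Ire1 (Ern1), Perk (Eif2ak3) and Atf6, which raise chaperone genes through the factors Xbp1, Atf4 and cleaved Atf6, and chains that stay misfolded are exported for degradation. In the lens the ER supplies membrane channels, connexins and the collagen of the capsule, and it is broken down with the other organelles as fibre cells mature.

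Promoters of a part of these genes hold the ER stress response element, to which Atf6 binds together with the factor NF-Y. Its letters, CCAAT and CCACG with 9 bases of any kind between them, were searched on both strands in the 250 bases before the start of each gene in RefSeq (GRCm38.p6). Windows were at hand for 29 of the 34 genes, and those of Sec61a1, Hyou1, Derl1, Manf and Atf6 were not analysed here. The element was present in 10 of the 29 genes (34.5%), against 37 of 32851 windows of all genes (0.113%). The 10 were Hspa5, Hsp90b1, Dnajc3, Creld2, Calr, Canx, Pdia6, Ero1lb, Syvn1 and Derl3, and Hsp90b1 held it in 2 places. The shorter element ERSE-II (ATTGG and CCACG with 1 base between them) was present in Herpud1, against 0.0304% of all windows. The core of the Xbp1 element (TGACGTGG) was in 0 of the 29, against 0.563%. No match of the 2 longer motifs overlapped another in these windows. The element was described from genes of this kind, so its frequency here is a description. The windows of 6 members are printed because they show the element in genes whose stage or genotype values follow, with its CCAAT and CCACG ends in capitals (CGTGG and ATTGG on the opposite strand). They lie at chr2:34771840-34772089 (plus strand) for Hspa5, chr10:86705445-86705694 (minus strand) for Hsp90b1, chr8:84846932-84847181 (minus strand) for Calr, chr12:17266339-17266588 (plus strand) for Pdia6, chr15:88819396-88819645 (plus strand) for Creld2 and chr14:118937682-118937931 (plus strand) for Dnajc3, and are written 5′ to 3′ on the strand of the gene.
Hspa5: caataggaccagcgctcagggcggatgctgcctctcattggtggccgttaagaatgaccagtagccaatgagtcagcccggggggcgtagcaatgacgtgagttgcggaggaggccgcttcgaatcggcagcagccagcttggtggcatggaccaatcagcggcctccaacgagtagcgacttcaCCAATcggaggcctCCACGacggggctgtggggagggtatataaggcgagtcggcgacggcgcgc
Hsp90b1: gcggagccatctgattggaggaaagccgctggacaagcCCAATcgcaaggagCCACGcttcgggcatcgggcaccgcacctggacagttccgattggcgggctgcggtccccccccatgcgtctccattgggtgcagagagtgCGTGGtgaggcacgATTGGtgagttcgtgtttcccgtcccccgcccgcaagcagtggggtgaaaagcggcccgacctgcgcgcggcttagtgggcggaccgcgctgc
Calr: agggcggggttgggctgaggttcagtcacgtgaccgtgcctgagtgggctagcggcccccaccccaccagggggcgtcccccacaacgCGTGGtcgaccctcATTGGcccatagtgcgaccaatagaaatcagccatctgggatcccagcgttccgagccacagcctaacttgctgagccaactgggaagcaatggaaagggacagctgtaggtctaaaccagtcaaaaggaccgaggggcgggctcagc
Pdia6: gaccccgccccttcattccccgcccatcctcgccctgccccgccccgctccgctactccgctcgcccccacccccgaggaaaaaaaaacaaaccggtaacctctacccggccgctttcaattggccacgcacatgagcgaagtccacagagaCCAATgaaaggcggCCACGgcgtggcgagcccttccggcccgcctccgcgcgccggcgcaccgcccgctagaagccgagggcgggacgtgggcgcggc
Creld2: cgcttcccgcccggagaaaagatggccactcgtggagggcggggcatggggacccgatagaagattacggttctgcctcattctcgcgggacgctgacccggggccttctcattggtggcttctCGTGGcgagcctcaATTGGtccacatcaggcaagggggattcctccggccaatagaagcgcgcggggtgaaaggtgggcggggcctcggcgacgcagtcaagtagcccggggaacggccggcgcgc
Dnajc3: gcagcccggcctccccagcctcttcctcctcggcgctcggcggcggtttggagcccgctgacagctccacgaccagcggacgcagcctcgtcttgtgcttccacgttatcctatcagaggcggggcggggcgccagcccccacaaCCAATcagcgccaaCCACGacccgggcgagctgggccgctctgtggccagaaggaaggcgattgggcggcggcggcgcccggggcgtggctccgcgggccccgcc

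Array medians lay between 5.05 and 5.25, and precision is limited by 5 arrays per group. All 18 lens markers examined, of epithelium and of fibres, lay above the array median on every array, although the labels name epithelial cells. Replicates 24 and 27 of the TKO E17.5 group stood closer to the E17.5 controls (mean r of 0.990 and 0.993) than to their own group (0.985 and 0.988). The Gapdh 5′ minus 3′ signal, a sign of RNA length (log2), was 0.147 to 0.195 in TKO P0 and -0.0463 to 0.0605 in control P0 arrays. It was 0.100 to 0.200 in TKO E17.5 and -0.0598 to -0.0192 in control E17.5 arrays, so that the genotypes did not overlap, and its part in the results was not tested. Of the targeted genes, E2f1 was higher in TKO lenses at P0 (0.44 ± 0.09, adjusted p = 0.00263) and at E17.5 (0.60 ± 0.08, adjusted p = 0.00788). E2f2 and E2f3 had -0.04 ± 0.07 and -0.06 ± 0.08 at P0 and -0.09 ± 0.07 and -0.07 ± 0.10 at E17.5, and were not called. Control and TKO mice were all E2F2-/-, so the E2f2 values cannot check the knockout. The E2f1 and E2f3 probe sets may lie outside the deleted parts and then check nothing.

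Of the 34 genes, 33 lay above the array median in at least 5 of 20 arrays and were tested. Derl3, a relative of the export factor Derl1, lay below the median on all 20 arrays, with 4.35 ± 0.14 in TKO P0, 4.26 ± 0.18 in control P0, 4.01 ± 0.14 in TKO E17.5 and 4.19 ± 0.09 in control E17.5 lenses (SD, n = 5 each). Sdf2l1, a partner of the BiP co-chaperone Dnajb11, passed through 14 arrays, of which 4 were TKO P0, 0 control P0, 5 TKO E17.5 and 5 control E17.5. The other 32 lay above the median on every array.

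Many of these genes were lower at birth than at E17.5, in TKO and in control lenses. In TKO lenses 11 of 33 members were lower at P0 and 1 was higher, at an adjusted p below 0.05 (limma, Benjamini-Hochberg over 11859 genes). Of all genes tested, 8.77% were lower and 5.8% higher. The members' median change was -0.26 (log2), against -0.03 over all genes. In control lenses 21 of 33 members were lower at P0 and 3 were higher, against 24.9% and 12.5% of all genes, with a median of -0.21 against -0.04. The comparisons within TKO and within control lenses share no arrays. All 21 members that fell in control lenses had a negative change in TKO lenses, and the 11 that fell in TKO lenses were among them (100% of the TKO list and 52.4% of the control list). The sign was the same in 29 of 33 members, and the changes correlated with r = 0.81 across these genes, which share arrays and are no replicates. This agreement between genotypes was not counted over all genes, so it is not read as a trait of the ER genes.

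**Figure D1:**
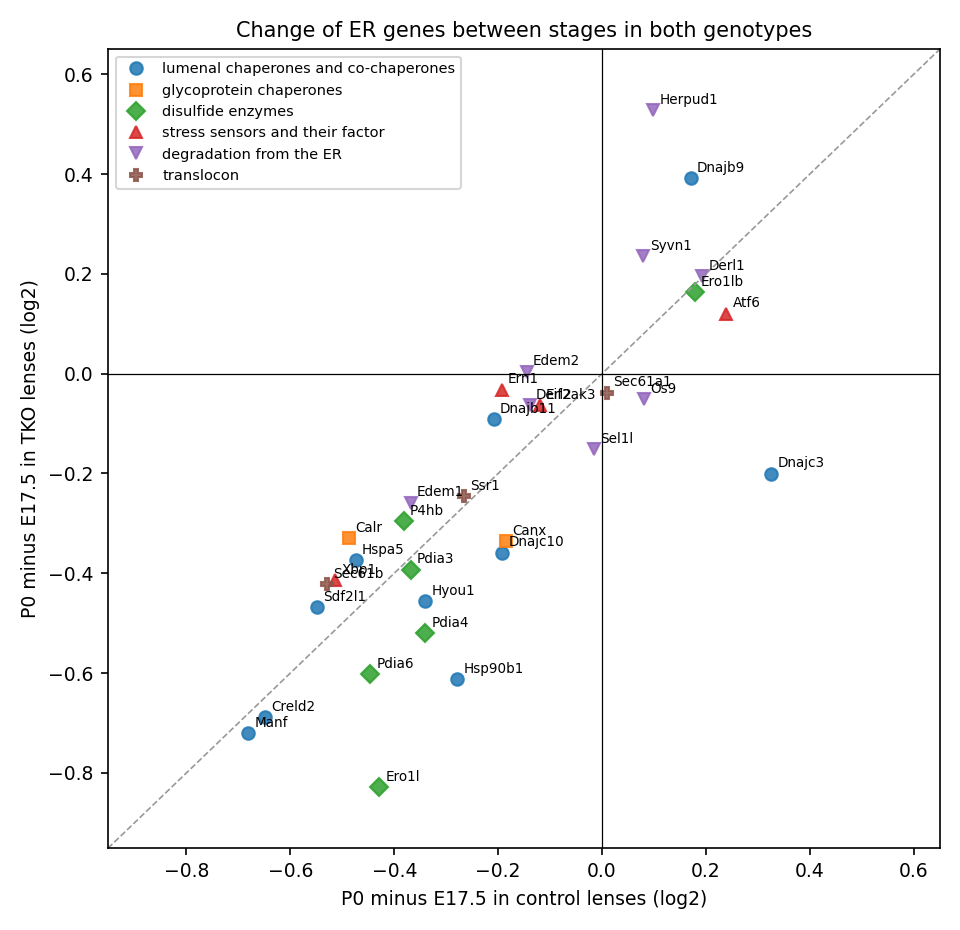
Log2 change of each tested gene between the stages, P0 minus E17.5, in TKO lenses (vertical axis) and in control lenses (horizontal axis), with points by role and a dashed line of equal change. Of 33 genes, 23 lie below 0 on both axes.

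Among the 10 lumenal chaperones and co-chaperones, 4 fell in TKO lenses (Hsp90b1, Hyou1, Manf and Creld2). In control lenses 8 fell, these 4 and Hspa5, Dnajb11, Dnajc10 and Sdf2l1. Of these, Sdf2l1 lay below the array median on every control P0 array and passed the filter through the other groups. Manf, a small ER protein that binds BiP and can be secreted, was 8.42, 8.64, 8.49, 8.46 and 8.92 in TKO P0 arrays and 9.005, 9.48, 9.30, 9.06 and 9.66 in TKO E17.5 arrays. It was 8.19, 8.39, 8.27, 8.28 and 8.33 in control P0 arrays and 8.83, 8.96, 9.03, 9.02 and 9.04 in control E17.5 arrays. Every P0 array lay below every E17.5 array of its genotype, with a change of -0.72 ± 0.14 in TKO lenses (adjusted p = 0.0140) and -0.68 ± 0.05 in control lenses (adjusted p = 4.2e-05). Creld2, an ER protein known to be induced by ER stress, changed by -0.69 ± 0.12 in TKO lenses (adjusted p = 0.00812) and -0.65 ± 0.07 in control lenses (adjusted p = 0.000139). Its stages did not overlap in either genotype.

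Hspa5, the Hsp70 chaperone of the ER, was 11.24, 11.60, 11.48, 11.38 and 11.79 in TKO P0 arrays and 11.59, 12.03, 12.05, 11.70 and 11.995 in TKO E17.5 arrays. The TKO stages overlapped, and the change did not pass (-0.37 ± 0.13, adjusted p = 0.0697). Of 2 other probe sets of Hspa5, 1 passed as lower, and the other was positive and not called. In control lenses Hspa5 was 11.15, 11.35, 11.41, 11.31 and 11.21 at P0 and 11.64, 11.70, 11.77, 11.79 and 11.91 at E17.5. These stages did not overlap, and Hspa5 fell by 0.47 ± 0.06 (adjusted p = 0.000349). Dnajc3, a co-chaperone that also restrains Perk, was higher at P0 in control lenses by 0.33 ± 0.09 (adjusted p = 0.0173), with overlapping stages, and had -0.20 ± 0.13, adjusted p = 0.316, in TKO lenses. Dnajb9, a co-chaperone that targets BiP clients, was the member that rose in TKO lenses (0.39 ± 0.11, adjusted p = 0.0424), and had 0.17 ± 0.08, adjusted p = 0.104, in control lenses.

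The lectin chaperone Canx fell by 0.34 ± 0.09 in TKO lenses (adjusted p = 0.0378) and by 0.19 ± 0.07 in control lenses (adjusted p = 0.0472). These calls held in 8 of 18 alternatives in TKO and 4 of 17 in control lenses. Other stage calls were lost in many alternatives too, as they held for Pdia3 in TKO lenses (9 of 18) and for Hsp90b1 (9 of 17), Dnajc10 (7 of 17) and Ern1 (7 of 16) in control lenses. The soluble lectin Calr changed by -0.33 ± 0.12 in TKO lenses (adjusted p = 0.0829) and fell by 0.49 ± 0.08 in control lenses (adjusted p = 0.00115). Of the 6 disulfide enzymes, 4 fell in TKO lenses (Pdia3, Pdia4, Pdia6 and Ero1l, with falls of 0.39 to 0.83) and 5 in control lenses (these 4 and P4hb, with falls of 0.34 to 0.45). Ero1l, the oxidase that recharges the disulfide isomerases, was 7.89, 7.92, 7.82, 8.01 and 8.36 in TKO P0 arrays and 8.95, 8.79, 8.78, 8.91 and 8.71 in TKO E17.5 arrays. The stages did not overlap, and its fall was the largest among the tested members in TKO lenses (-0.83 ± 0.11, adjusted p = 0.00355). In control lenses Ero1l fell by 0.43 ± 0.08 (adjusted p = 0.00195). Its paralogue Ero1lb had 0.16 ± 0.08 in TKO and 0.18 ± 0.08 in control lenses and was not called.

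Xbp1, the factor whose mRNA Ire1 splices, was 9.82, 9.70, 9.90, 9.75 and 9.84 in TKO P0 arrays and 10.001, 10.15, 10.27, 10.27 and 10.40 in TKO E17.5 arrays. It fell by 0.41 ± 0.09 in TKO lenses (adjusted p = 0.0167) and by 0.51 ± 0.06 in control lenses (adjusted p = 0.000220), and its spliced form was not analysed here. Of the sensors, Ern1, Atf6 and Eif2ak3 had -0.03 ± 0.12, 0.12 ± 0.16 and -0.06 ± 0.14 in TKO lenses and were not called. In control lenses Ern1 fell (-0.19 ± 0.06, adjusted p = 0.0297), Atf6 rose (0.24 ± 0.07, adjusted p = 0.0205) and Eif2ak3 had -0.12 ± 0.06, adjusted p = 0.117. Of the 8 tested degradation factors, 0 passed in TKO lenses in limma, and 2 did at an unadjusted p below 0.05 (Herpud1, 0.53 ± 0.18, and Derl1, 0.20 ± 0.08), against 33.0% of all genes. In control lenses Edem1 (-0.37 ± 0.07) and Derl2 (-0.14 ± 0.04) fell and Derl1 rose (0.19 ± 0.04). Of the channel subunits, Sec61b fell by 0.42 ± 0.09 in TKO and by 0.53 ± 0.07 in control lenses. Ssr1, of the complex beside the channel, had -0.25 ± 0.11 in TKO lenses (not called) and fell by 0.27 ± 0.06 in control lenses. Sec61a1, the pore-forming subunit, had -0.04 ± 0.10 in TKO and 0.01 ± 0.04 in control lenses and was not called.

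In TKO lenses the stages did not overlap for 9 of 33 members lower at P0 and for 0 higher, against 7.02% and 4.73% of all genes. In control lenses they did not overlap for 16 members lower and 1 higher (Derl1), against 17.2% and 7.78%. Other probe sets of these genes mostly had the same sign. Of 11 others for the members that fell in TKO lenses, 9 were negative, 5 passed as lower and 0 as higher. Of 23 others for the members that fell in control lenses, 21 were negative, 10 passed as lower and 0 as higher. Of the 10 genes with the stress response element, among which Derl3 was not tested, 6 fell in control lenses. Of the 18 with a window and none of the 3 motifs, all of them tested, 13 did. Centring arrays on their median gave 26.7% higher among all genes called in TKO lenses, against 39.8% as deposited, with 15 members lower and 1 higher against 10.8% and 3.94% of all genes. Quantile normalization gave 51.3% higher among those called in control lenses, against 33.4%, with 16 members lower and 6 higher against 18.5% and 19.5% of all genes. The members that fell in TKO lenses numbered 6, 7, 5 and 7 without TKO P0 replicate 17, 18 or 19 or TKO E17.5 replicate 25. Of all genes 2.69%, 3.67%, 2.62% and 4.12% fell in these fits, in the same order, against 8.77% with all arrays. The call of Dnajb9 was lost without TKO P0 replicate 17, 18 or 19 or TKO E17.5 replicate 24, 25, 26 or 27.

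Markers of other cells were also counted between the stages. Of all genes, 8.77% fell and 5.8% rose in TKO lenses, and 24.9% and 12.5% did in control lenses. Blood markers were lower at P0 for 1 of 2 tested in TKO lenses (median -1.46) and for 2 of 2 in control lenses (median -1.57). Macrophage markers passed for 0 of 9 in TKO lenses (median 0.08, with 0 at an unadjusted p below 0.05 in limma) and were lower for 4 of 9 in control lenses (median -0.80). Retina markers were higher at P0 for 1 of 14 in TKO lenses (median 0.55) and lower for 5 of 14 in control lenses (median -0.54). Pigment cell markers were higher for 1 of 10 in TKO lenses (median 0.86) and lower for 1 of 10 in control lenses (median -0.10). Endothelium and pericyte markers passed for 0 of 12 in TKO lenses (median -0.24) and 0 of 12 in control lenses (median -0.13). At an unadjusted p below 0.05 in limma these numbered 0 and 1, against 33.0% and 46.9% of all genes. Of 18 lens markers, 1 was higher and 2 lower in TKO lenses (median 0.03), and 8 were higher and 0 lower in control lenses (median 0.07). Their part in the stage changes of the ER genes was not tested.

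At birth, TKO and control lenses differed in 9 of 33 members, with 4 higher in TKO, 5 lower and 24 not called. Across the array 20.2% of genes were higher and 19.4% lower in TKO P0 lenses, 39.6% in all, and the members' share of 27.3% was no higher than this background. Their median difference was 0.06, against -0.01 over all genes, and no member differed by 2-fold. Centring arrays on their median gave 38.7% higher among all genes called, against 51.0% as deposited, with 2 members higher and 8 lower against 15.9% and 25.1% of all genes. In these bulk samples, fewer cells of a type and less RNA per cell cannot be told apart.

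Markers of neighbouring cells moved with genotype at P0. Retina markers were higher in TKO P0 lenses for 12 of 14 tested, pigment cell markers for 7 of 10 and macrophage markers for 5 of 9. Of all genes, 20.2% were higher and 19.4% lower. Endothelium and pericyte markers were higher for 0 of 12 and lower for 1. Of 18 lens markers, 2 were higher and 4 lower in TKO P0 lenses, with differences of -2.73 to 0.41 (median -0.03). The summed level (log2) of the retina markers was 11.42 to 11.93 in TKO P0 and 9.42 to 10.86 in control P0 arrays. That of the pigment cell markers was 11.59 to 12.35 in TKO P0 and 10.53 to 10.98 in control P0 arrays, and that of the macrophage markers 9.89 to 10.87 in TKO P0 and 9.07 to 10.28 in control P0 arrays. At E17.5 the retina markers spanned 10.19 to 12.72 in TKO and 10.35 to 11.27 in control arrays, and 0 of 14 passed, with 0 at an unadjusted p below 0.05. The part of these cells in the results was not tested.

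**Figure D2:**
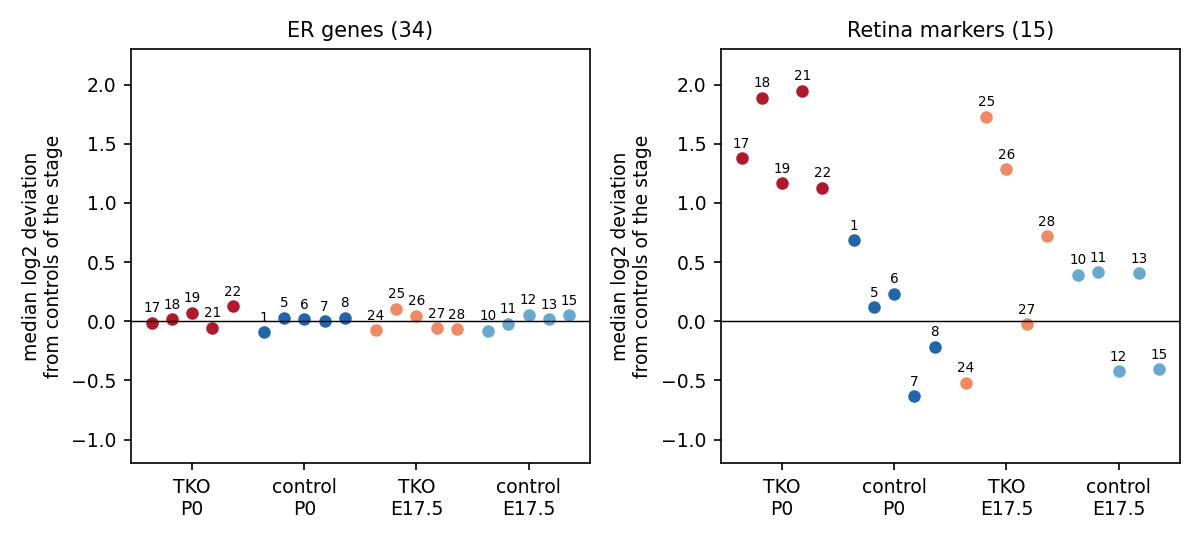
Median deviation (log2) of each array from the mean of the controls of its stage, for the 34 ER genes and for 15 retina markers, with replicate numbers beside the points. ER genes lie between -0.09 and 0.13, and retina markers reach 1.95 in TKO P0 and 1.73 in TKO E17.5 arrays.

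Among the 10 lumenal chaperones and co-chaperones, 3 were higher in TKO P0 lenses. Hsp90b1, the ER member of the Hsp90 family, was 10.18, 10.09, 10.26, 10.24 and 10.54 in TKO P0 arrays and 9.70, 9.74, 9.75, 9.66 and 10.15 in control P0 arrays. All TKO P0 arrays except replicate 18 lay above every control, among which replicate 8 was highest, and the difference was 0.46 ± 0.11 (adjusted p = 0.00632). Sdf2l1 was 5.38, 5.40, 5.32, 5.19 and 5.37 in TKO P0 arrays and 4.79, 5.10, 4.78, 5.04 and 4.94 in control P0 arrays. The groups did not overlap (0.40 ± 0.08, adjusted p = 0.00235), and all control P0 values lay below the array medians. Manf, with the values given above, did not overlap either and differed by 0.29 ± 0.09 (adjusted p = 0.0290). Its call was lost without TKO P0 replicate 18 or control P0 replicate 1, 6 or 7.

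Hspa5 did not pass at P0 (0.21 ± 0.10, adjusted p = 0.107), although 3 of 5 TKO P0 arrays lay above the highest control P0 array. Calr, Canx, Creld2, Pdia3, Pdia4, Pdia6 and P4hb had differences of -0.20 to 0.16 and were not called. Of the 6 disulfide enzymes, Ero1l passed and was lower in TKO P0 lenses. It was 7.89, 7.92, 7.82, 8.01 and 8.36 in TKO P0 arrays and 8.35, 8.48, 8.50, 8.58 and 8.55 in control P0 arrays. All TKO P0 arrays except replicate 22 lay below every control, and the difference was -0.49 ± 0.10 (adjusted p = 0.00281).

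**Figure D3:**
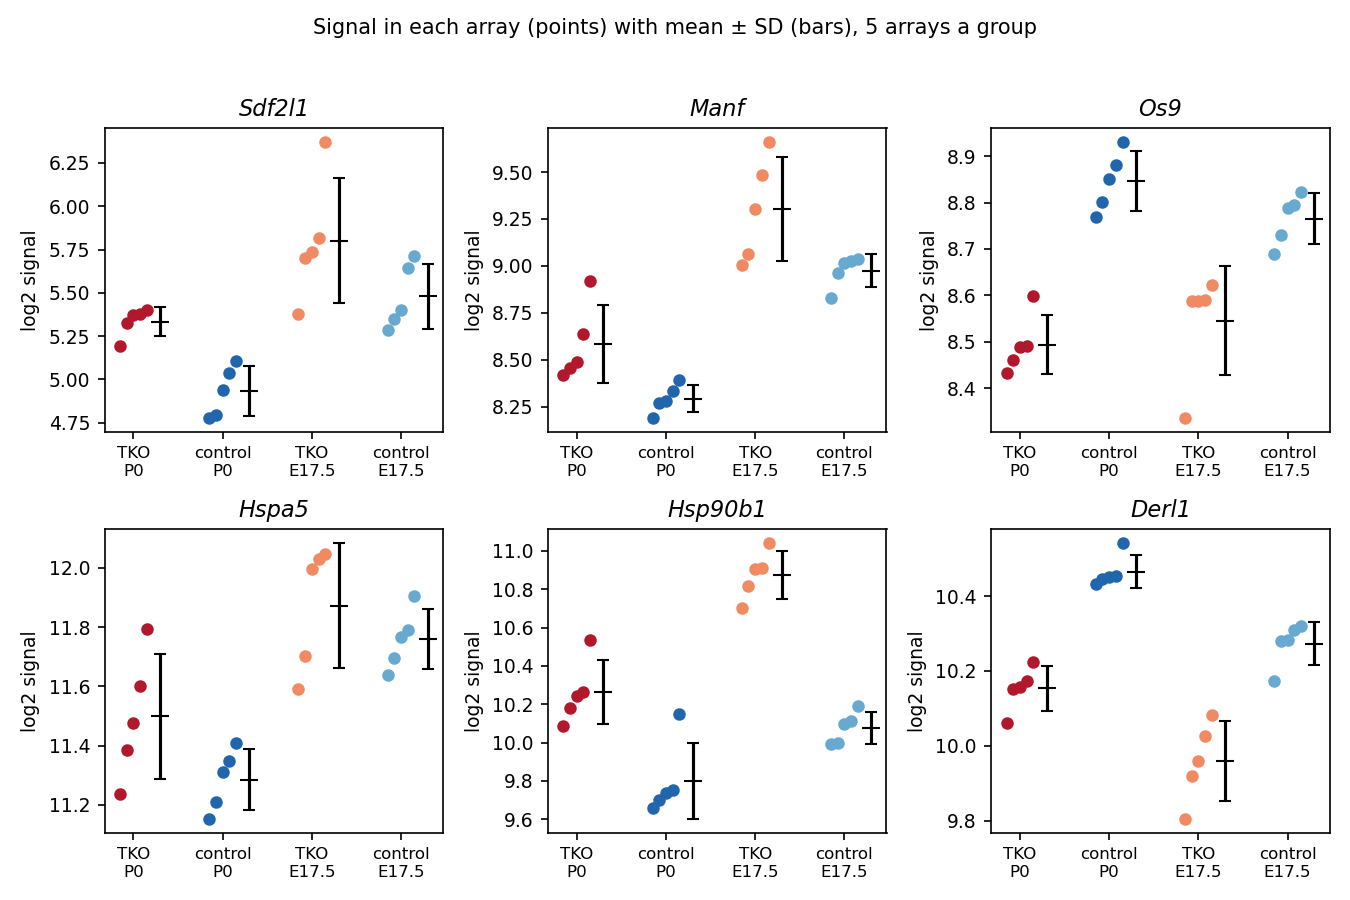
Log2 signal of 6 members on each array (points, sorted by value within a group) with the mean ± SD of 5 arrays (bars), for TKO P0, control P0, TKO E17.5 and control E17.5 lenses. In TKO P0 lenses Sdf2l1 and Manf lie above every control P0 array, and Os9 and Derl1 lie below every one.

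Of the sensors, Atf6 was lower in TKO P0 lenses, at 7.27, 6.94, 7.18, 7.26 and 7.44 in TKO P0 arrays and 7.61, 7.67, 7.77, 7.63 and 7.49 in control P0 arrays. The groups did not overlap (-0.42 ± 0.09, adjusted p = 0.00407). Ern1 (0.10 ± 0.10), Eif2ak3 (0.06 ± 0.09) and Xbp1 (0.13 ± 0.07) were not called. Degradation factors went both ways. Os9, a lectin that hands misfolded glycoproteins to the export complex, was 8.43, 8.46, 8.49, 8.49 and 8.60 in TKO P0 arrays and 8.85, 8.80, 8.93, 8.88 and 8.77 in control P0 arrays. Every TKO P0 array lay below every control P0 array (-0.35 ± 0.05, adjusted p = 0.000814). Derl1, a membrane factor of the export step, was 10.16, 10.06, 10.17, 10.15 and 10.22 in TKO P0 arrays and 10.46, 10.45, 10.54, 10.45 and 10.43 in control P0 arrays, again without overlap (-0.31 ± 0.05, adjusted p = 0.00104). Edem1, which acts on the mannose chains of misfolded glycoproteins, was higher by 0.20 ± 0.07 (adjusted p = 0.0407), with overlapping groups, and this call held in 3 of 16 alternatives.

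Herpud1, a scaffold of the degradation complex, spread widely, with 9.71 ± 0.38 in TKO P0 and 9.36 ± 0.38 in control P0 lenses (SD, n = 5 each), and was not called. Sel1l, another scaffold of that complex, had -0.24 ± 0.09, adjusted p = 0.0609. Of the members not yet named at this stage, Hyou1, Dnajb9, Dnajb11, Dnajc3, Dnajc10, Ero1lb, Syvn1, Edem2 and Derl2 had differences of -0.23 (Dnajc3) to 0.17 (Dnajb9) and were not called. Of the channel subunits, Sec61a1 was 11.72, 11.70, 11.79, 11.68 and 11.86 in TKO P0 arrays and 11.87, 11.99, 12.02, 11.98 and 12.003 in control P0 arrays, without overlap (-0.22 ± 0.06, adjusted p = 0.00943). Sec61b had 0.21 ± 0.09, adjusted p = 0.0688, and Ssr1 had 0.21 ± 0.09, adjusted p = 0.0999. At P0 the groups did not overlap for 2 members higher in TKO (Sdf2l1 and Manf) and 4 lower (Atf6, Derl1, Os9 and Sec61a1), against 13.2% and 12.7% of all genes. The members higher numbered 2 without TKO P0 replicate 18 or control P0 replicate 1 or 7. The members lower numbered 9 without TKO P0 replicate 22, when Hyou1, Dnajc3, Pdia4 and Sel1l also passed, against 22.1% of all genes.

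**Figure D4:**
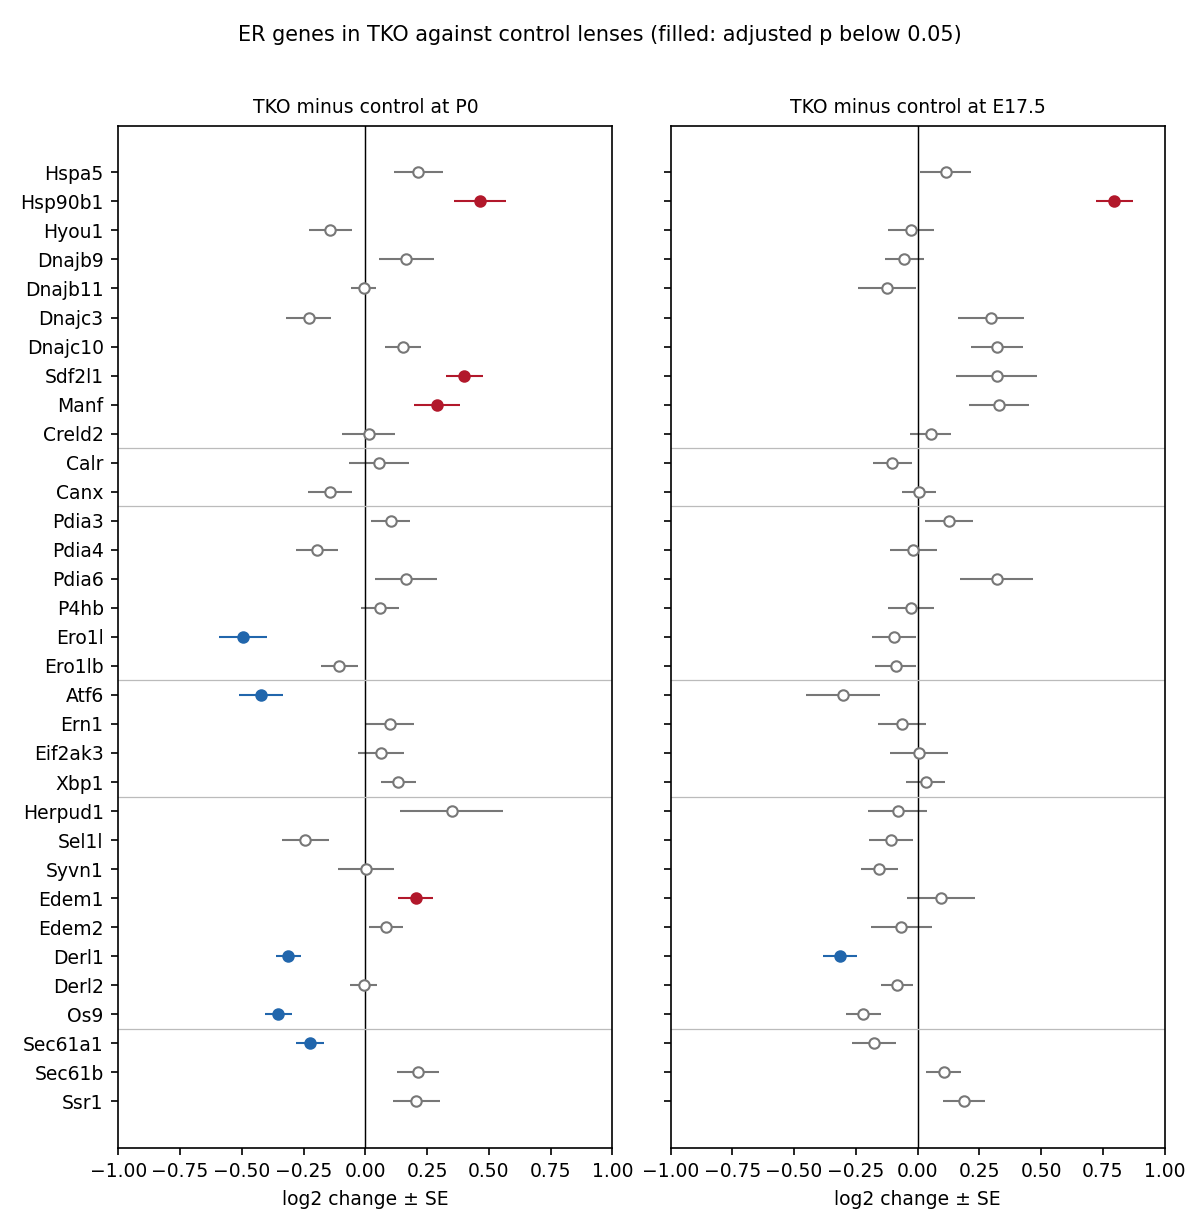
TKO minus control difference (log2 ± SE) of the 33 tested genes at P0 (left) and E17.5 (right), grouped by role. Filled points passed at an adjusted p below 0.05: 4 higher and 5 lower at P0, and Hsp90b1 higher and Derl1 lower at E17.5.

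Several of the P0 differences rested on 1 probe set of a gene that has more. For Hsp90b1 the probe set used (mean signal 10.3) gave 0.46 ± 0.11, and the other (mean signal 10.1) gave -0.06 ± 0.08. For Derl1 the probe set used was lower and 1 of the 3 others was higher (0.34 ± 0.06, adjusted p = 0.00196). For Sec61a1 the probe set used and 1 other were lower (-0.22 ± 0.06 and -0.19 ± 0.06), and 2 others were higher (0.50 ± 0.09 and 0.40 ± 0.09). The other probe sets of Ero1l and Atf6 lay between -0.06 and 0.10, and none passed. The second probe set of Os9 also passed as lower (-0.24 ± 0.07, adjusted p = 0.0234). Sdf2l1 and Manf had no other probe set. In all, of 13 other probe sets of the 5 members lower at P0, 6 were negative, 2 passed as lower and 3 as higher. Among members not called at P0, 2 of 3 other probe sets of Ssr1 and 1 of 2 of Hspa5 passed as higher. For Sel1l, whose probe set used was negative, 1 of 4 others passed as higher, and for Derl2 the 1 other passed as lower. With the mean of a gene's probe sets, the members called at P0 were Hspa5, Sdf2l1, Manf and Ssr1, which were higher, and Os9, which was lower.

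**Figure D5:**
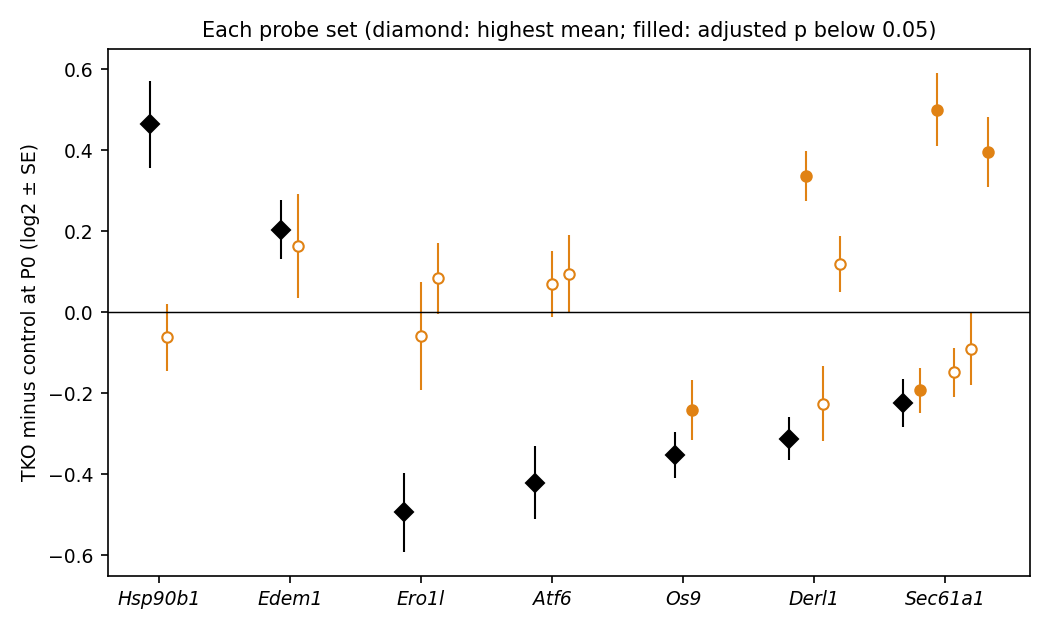
TKO minus control difference at P0 (log2 ± SE) for each probe set that passed the filter, in the 7 called members with more than 1. Diamonds mark the probe sets used and filled symbols an adjusted p below 0.05 over all probe sets that passed. Derl1 and Sec61a1 have filled symbols on both sides of 0.

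At E17.5, 1 of 33 members was higher and 1 lower in TKO lenses, against 1.59% and 1.31% of all genes (2.89% in all). At an unadjusted p below 0.05 the members numbered 6 of 33, against 25.6% of all genes. The median difference was -0.03, against -0.03 over all genes. Hsp90b1 was 10.82, 10.91, 11.04, 10.91 and 10.70 in TKO E17.5 arrays and 9.997, 10.10, 10.19, 9.99 and 10.11 in control E17.5 arrays. Every TKO E17.5 array lay above every control E17.5 array (0.80 ± 0.08, adjusted p = 0.00247), the call held in all 18 alternatives to the processing, and the second probe set gave 0.11 ± 0.07, adjusted p = 0.319. Derl1 was 9.80, 9.92, 9.96, 10.08 and 10.03 in TKO E17.5 arrays and 10.31, 10.17, 10.28, 10.28 and 10.32 in control E17.5 arrays. The groups did not overlap (-0.31 ± 0.07, adjusted p = 0.0398), and another of its probe sets, the one higher at P0, was higher here too (0.34 ± 0.07, adjusted p = 0.0187). The call of Derl1 was lost when any 1 array was left out except TKO E17.5 replicate 27 or 28.

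Without a call, the E17.5 groups did not overlap for Dnajc10, a disulfide reductase that helps unfold proteins for export (0.32 ± 0.10, adjusted p = 0.102), Ssr1 (0.19 ± 0.09, adjusted p = 0.196) and Os9 (-0.22 ± 0.07, adjusted p = 0.0972). With Hsp90b1 and Derl1, this made 3 members higher and 2 lower without overlap, against 4% and 5.95% of all genes. Of 3 other probe sets of Ssr1, 2 passed as higher at E17.5, and of 5 others of Sec61a1, 2 did. The 31 members not called had differences of -0.30 (Atf6) to 0.33 (Manf). Leaving out TKO E17.5 replicates 24 and 27 together gave 5 members higher and 2 lower, and 2953 genes called in place of 343. These 2 were the TKO E17.5 arrays closest to the controls. Leaving them out by that choice tends to widen the differences, so the counts are a description. Of all genes 13.8% were then higher and 11.1% lower, so that the members' counts did not stand out from the background. The 5 were Hspa5 (0.26), Hsp90b1 (0.81), Dnajc10 (0.47), Manf (0.51) and Edem1 (0.29), and the 2 were Atf6 (-0.47) and Derl1 (-0.30). With all 10 arrays, Hspa5, Manf, Edem1 and Atf6 had 0.11 ± 0.10, 0.33 ± 0.12, 0.09 ± 0.14 and -0.30 ± 0.15. Manf was 9.005 and 9.06 in replicates 24 and 27, which lay near the control E17.5 arrays, and 9.48, 9.30 and 9.66 in replicates 25, 26 and 28, above all of them. Retina and pigment cell markers split the same arrays. The median deviation of the retina markers from the E17.5 controls was 1.73, 1.28 and 0.72 in replicates 25, 26 and 28 and -0.52 and -0.03 in replicates 24 and 27. That of the pigment cell markers was 0.73, 0.63 and 0.93 in replicates 25, 26 and 28 and -0.57 and -0.49 in replicates 24 and 27. That of the macrophage markers was 0.13, -0.29 and 1.38 against -0.53 and -0.56, in the same order. Endothelium and pericyte markers did not split this way, with -0.44, -0.76 and 1.17 against -0.32 and -0.21. The part of these cells was not tested. Without single arrays the count of all genes called ranged between 49 (control replicate 15) and 1129 (TKO replicate 27), and it was outside 1.5 times the full count for every array except TKO replicate 24.

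The effect of genotype at P0 was compared with that at E17.5 in a fit of all 20 arrays. By limma 0 of 33 members differed at an adjusted p below 0.05, and 3 did at an unadjusted p below 0.05 (Dnajc3, Ero1l and Hsp90b1). Of all genes 21 differed (0.177%, with 0.0337% higher and 0.143% lower), and 1866 did at an unadjusted p below 0.05 (15.7%). The effect on Dnajc3 was -0.23 ± 0.09 at P0 and 0.30 ± 0.13 at E17.5, a difference of -0.53 ± 0.17 (adjusted p = 0.159). That on Ero1l was -0.49 ± 0.10 at P0 and -0.10 ± 0.09 at E17.5, a difference of -0.40 ± 0.13 (adjusted p = 0.184). That on Hsp90b1 was 0.46 ± 0.11 at P0 and 0.80 ± 0.08 at E17.5, a difference of -0.33 ± 0.13 (adjusted p = 0.239). Ero1l passed without TKO P0 replicate 22. The sign of the TKO effect was the same at both stages for 24 of 33 members.

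Other genes of the same pathways were counted from 9 lists, against the same backgrounds of 20.2% of genes higher and 19.4% lower at P0 and 1.59% and 1.31% at E17.5. At an unadjusted p below 0.05, 25.6% of all genes passed at E17.5, beside which the unadjusted counts of the lists are to be read. In the Perk arm and integrated stress response, 2 of 14 tested genes were higher in TKO P0 lenses and 4 lower. Asns, which makes asparagine, and Atf4, the main factor of this arm, were higher (0.48 ± 0.10 and 0.24 ± 0.06). Eif2ak4, the amino acid sensor Gcn2, Slc7a11, a cystine transporter, and the lipoprotein receptor Vldlr were lower (-0.29 ± 0.06, -0.60 ± 0.18 and -0.69 ± 0.18). At E17.5, 0 of 14 passed in limma, and 3 did at an unadjusted p below 0.05. Of 9 genes of Atf6 and Creb3 processing, Creb3 was higher at P0 (0.35 ± 0.06), and Mbtps2 and Mbtps1, the proteases that release Atf6, were lower (-0.55 ± 0.13 and -0.24 ± 0.08). At E17.5, 0 of 9 passed, and 4 did at an unadjusted p below 0.05.

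Of 32 other folding enzymes, 7 were higher and 7 lower at P0. The prolyl isomerase Ppic (1.05 ± 0.20) and the calnexin relative Clgn (0.66 ± 0.15) were higher, and the glucosidase Mogs (-0.36 ± 0.06) and the glycoprotein glucosyltransferase relative Uggt2 (-0.38 ± 0.10) were lower. Of 30 other degradation genes, 4 were higher and 9 lower, among them Selenok (0.39 ± 0.06) and the mannosidase Man1b1 (-0.42 ± 0.06). At E17.5, 0 of the 32 and 0 of the 30 passed in limma, with 4 and 9 at an unadjusted p below 0.05. In the list of channel, signal peptidase and signal recognition particle genes, 5 of 20 were higher and 1 lower at P0. Spcs1 and Srp9, of these last 2 complexes, had 0.50 ± 0.06 and 0.40 ± 0.07, and the signal peptidase subunit Sec11c had -0.55 ± 0.10. At E17.5 the channel paralogue Sec61a2 was higher (0.65 ± 0.09, adjusted p = 0.00833). Of 12 oligosaccharyltransferase genes, which attach sugar chains, 5 were higher and 1 lower at P0. Its subunit Tusc3 was higher at P0 (0.42 ± 0.07) and at E17.5 (0.47 ± 0.09, adjusted p = 0.0346).

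Of 13 collagen folding and modification genes, 2 were higher at P0 (P3h3, 0.96 ± 0.17, and Colgalt2, 0.60 ± 0.11) and 3 lower (P3h2, -0.69 ± 0.14, P3h4, -0.31 ± 0.06, and Colgalt1, -0.22 ± 0.07). At E17.5, 0 of 13 passed, with 1 at an unadjusted p below 0.05. Of 17 export and retrieval genes, 5 were higher and 5 lower at P0. Sec23b, a coat protein of vesicles that leave the ER, was 9.71 ± 0.05 in TKO P0 and 8.92 ± 0.19 in control P0 lenses (SD, n = 5 each). It was higher at P0 (0.79 ± 0.09, adjusted p = 0.000190) and at E17.5 (0.78 ± 0.09, adjusted p = 0.00323). Of 17 genes of ER death signalling and calcium, 2 were higher and 4 lower at P0. Bcap31, an ER membrane protein, was higher (0.29 ± 0.07), and Tmbim6, the ER-resident Bax inhibitor, and Bcl2l11, the death factor Bim, were lower (-0.54 ± 0.07 and -0.43 ± 0.12). At E17.5 Bak1, a pore former of cell death, was lower (-0.43 ± 0.08, adjusted p = 0.0251).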

How the data were processed

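RNA of both lenses of each mouse (2 ug total RNA per array, per the labels' protocols) was hybridised to 20 Affymetrix arrays. The values used are the log2 signals deposited by the authors, between 1.72 and 15.0 over 45101 probe sets. The log2 scale was read from the values, and how the authors normalized is not given in these sources. Probe sets with 1 gene (34945) were named from GEO's platform annotation and symbols updated through RefSeq (GRCm38.p6), which gave 18193 genes with 1 probe set each, that of the highest mean.

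Genes whose probe set lay above the array median (50th percentile) in at least 5 arrays (11859) were tested with limma 3.58.1 in R 4.3.3, lmFit and eBayes, on the groups compared (8 residual degrees of freedom), and on all arrays for the difference of effects (16). P-values were adjusted by Benjamini-Hochberg over all genes tested, and called below 0.05. Changes are log2 ± standard error. The steps were tested on simulated data with 200 of 11859 genes changed. Of the calls, 17.4% were false for TKO minus control at E17.5, 8.33% at P0 and 12.2% for the difference of effects. For the change between stages 11.6% were false in TKO and 4.55% in control lenses. Changes of 0.25 (log2) were recovered in 4.48%, 31.3%, 2.99%, 2.99% and 41.8% of genes, in the same order. A gene not called may therefore have changed by such an amount. In the data 4700 genes were called at P0 and 4431 between stages in control lenses. The simulated rates may not hold for these comparisons, because they depend on how many genes change. No 2 arrays shared more than 0.142% of equal values.

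The members and lists were chosen with earlier results of these data known. All members were described, and from each list of other genes up to 3 higher and 3 lower genes with the smallest adjusted p were eligible to be named (up to 2 as values where none was called). Alternatives were another fit, array weights, normalization, filter or probe set rule, and arrays left out.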

Additional observations from a re-analysis of the deposited data

Results flagged for a closer look

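Within a group of 5 arrays, 1 array stood far from the other 4 in 20 of 136 gene and group combinations, by Dixon's ratio against its critical value of 0.71, where chance gives about 1 in 20. On TKO P0 replicate 22 Pdia6 was 11.83, above the other 4 at 11.29 to 11.37. On TKO P0 replicate 21 Ern1 was 6.15, below the other 4 at 6.51 to 6.63. On control P0 replicate 8 Hsp90b1 was 10.15, above the other 4 at 9.66 to 9.75, and on replicate 5 Ero1lb was 5.79, below the other 4 at 6.01 to 6.08. On control P0 replicate 6 Herpud1 was 10.03, above the other 4 at 9.09 to 9.26, and Derl1 was 10.54, above the other 4 at 10.43 to 10.46. On control P0 replicate 1 Sec61a1 was 11.87, below the other 4 at 11.98 to 12.02.

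On TKO E17.5 replicate 28, 4 genes stood apart. There Dnajb11 was 8.25, below the other 4 at 8.82 to 8.89, and Edem2 was 6.68, below the other 4 at 7.17 to 7.36. On the same array Dnajc3 was 8.88, above the other 4 at 8.23 to 8.40, and Sec61b was 11.02, above the other 4 at 10.73 to 10.81. On TKO E17.5 replicate 27 Calr was 12.02, below the other 4 at 12.17 to 12.21, and Canx was 11.12, above the other 4 at 10.87 to 10.94. On TKO E17.5 replicate 25 Pdia3 was 11.52, above the other 4 at 11.03 to 11.12, and on replicate 24 Os9 was 8.34, below the other 4 at 8.59 to 8.62.

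On control E17.5 replicate 10, 4 genes stood apart and all were low. There Dnajc10 was 9.03, below the other 4 at 9.20 to 9.26, and P4hb was 10.74, below the other 4 at 10.92 to 10.99. On the same array Ero1l was 8.63, below the other 4 at 8.94 to 9.06, and Ssr1 was 10.46, below the other 4 at 10.59 to 10.62. On control E17.5 replicate 11 Derl1 was 10.17, below the other 4 at 10.28 to 10.32. Differences between the TKO effects at P0 and at E17.5 met no criterion for a closer look.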

How the results depend on the processing

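Of 3396 values of single members under the alternatives, 3140 kept sign and side of the threshold or, for 180 of them, changed sign without a call either way. Of the rest, 159 lost a call, 78 gained one and 19 turned in direction with a call before or after. The direction turned mostly with the probe set read. At P0, TKO minus control turned for Hsp90b1 (-0.062), Ero1l (0.084), Atf6 (0.069 and 0.095), Sel1l (0.31), Derl1 (0.34 and 0.12) and Sec61a1 (0.50 and 0.40, and 0.040 with the mean of its probe sets). At E17.5 it turned for Derl1 (0.34 and 0.11) and Sec61a1 (0.53 and 0.51). The stage change turned in TKO lenses for Hyou1 (0.27) and Pdia6 (0.072) and in control lenses for Hyou1 (0.12), Dnajc3 (-0.12) and Ern1 (0.020). The cause was not tested. With the mean of a gene's probe sets, 1 member was lower at P0, 2 were higher and 0 lower at E17.5, and 6 fell between stages in TKO lenses. With all 20 arrays in 1 fit, 1541 genes were called at E17.5 (2 members higher, 2 lower), 3940 between stages in TKO (3 members higher, 17 lower) and 2046 in control lenses (1 member higher). Between arrays of a group, genes had a median SD of 0.204 in TKO E17.5 and 0.0963 in control E17.5 arrays. Array weights gave 713 genes at E17.5, 0 for the difference of the effects and 0 members higher at P0 in TKO lenses. Leaving out TKO E17.5 replicates 24 and 27, the closest of their group to the controls, gave 2953 genes at E17.5 (5 members higher, 2 lower). It gave 45 for the difference and 0 members higher at P0 in TKO lenses. Centring arrays left 2 members higher and 8 lower at P0. Quantile normalization gave 43 genes for the difference and 6 members higher at P0 in control lenses. Without a filter 2644 genes were called between stages in TKO lenses (2 members higher, and 56.7% of all calls higher). The stricter filter, which tests fewer genes and 28 members, left 884 there (22.2% higher) and 2 members higher at P0. Leaving out single arrays gave 3671 to 5071 genes at P0, 49 to 1129 at E17.5, 0 to 321 for the difference, 440 to 2716 between stages in TKO and 3669 to 4443 in control lenses. In the same order, members higher numbered 2 to 6, 1 to 1, 0 to 0, 0 to 2 and 3 to 4, and members lower 5 to 9, 0 to 1, 0 to 1, 5 to 15 and 16 to 22. The difference of the effects came to 0 genes without TKO P0 replicate 17, 18 or 19, TKO E17.5 replicate 27, control P0 replicate 5, 6 or 7 or control E17.5 replicate 10, 11, 12 or 15, and reached 321 without TKO P0 replicate 22. No paired analysis was possible because the groups share no replicate numbers.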

Other observations

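The pathway lists outside the 34 genes were also counted between the stages, P0 minus E17.5, where 8.77% of all genes fell and 5.8% rose in TKO lenses and 24.9% and 12.5% did in control lenses. Of the genes for entry into the ER (channel, signal peptidase and signal recognition particle), 5 of 20 tested genes fell and 0 rose in TKO lenses, against 12 and 2 in control lenses, with medians of -0.16 in TKO and -0.19 in control lenses. Of the oligosaccharyltransferase, which attaches sugar chains to entering proteins, 5 of 12 tested genes fell and 0 rose in TKO lenses, against 8 and 0 in control lenses, with medians of -0.35 in TKO and -0.28 in control lenses. Of the other folding enzymes, 7 of 32 tested genes fell and 0 rose in TKO lenses, against 12 and 1 in control lenses, with medians of -0.18 in TKO and -0.10 in control lenses. Of collagen folding and modification, 5 of 13 tested genes fell and 0 rose in TKO lenses, against 5 and 1 in control lenses, with medians of -0.11 in TKO and -0.18 in control lenses. Of export and retrieval, 3 of 17 tested genes fell and 0 rose in TKO lenses, against 7 and 0 in control lenses, with medians of -0.13 in TKO and -0.13 in control lenses. The counts of the remaining lists were as follows. Of the other degradation genes, 1 of 30 tested genes fell and 0 rose in TKO lenses, against 4 and 5 in control lenses, with medians of -0.02 in TKO and 0.02 in control lenses. Of the Perk arm, 1 of 14 tested genes fell and 1 rose in TKO lenses, against 3 and 1 in control lenses, with medians of -0.01 in TKO and 0.00 in control lenses. Of Atf6 and Creb3 processing, 3 of 9 tested genes fell and 1 rose in TKO lenses, against 2 and 0 in control lenses, with medians of -0.22 in TKO and -0.03 in control lenses. Of death signalling and calcium, 1 of 17 tested genes fell and 1 rose in TKO lenses, against 6 and 2 in control lenses, with medians of -0.16 in TKO and -0.05 in control lenses. These counts are descriptions, and no difference between the lists was tested.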
